A study of Drosophila melanogaster with 3 samples.

Results

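Among the peaks of the Drosophila protein Insensitive (Insv) that passed the authors' reproducibility threshold, 217 lay in introns away from gene starts and 515 elsewhere, so 29.6% (95% interval 26.4 to 33.1%) were intronic. They were chosen by position alone. The summit had to lie more than 500 bp from every annotated protein-coding transcript start, inside a protein-coding gene and in no exon of a protein-coding gene. The other 515 comprised 412 within 500 bp of a start, here called start-proximal, 87 in intergenic sequence and 16 in exons. The position rule was met throughout, although 23 of the 217 regions reached exon bases beside the summit and 5 summits lay in an exon of a non-coding gene.

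The peaks came from chromatin immunoprecipitation and sequencing of Drosophila melanogaster embryos of both sexes, collected at 0 to 24 h, in 1 group of 3 biological replicates. The embryos were of a stable transgenic line that carries insv fused at its C terminus to GFP, and an antibody against GFP was used. There was no second genotype, treatment or stage, and the control library that entered the peak calling was not analysed here. Whole embryos of a day-long collection mix many cell types and stages, so a weak peak cannot be told apart from binding in few cells. Nothing in the sources used here says whether the replicates came from separate collections, so the spread between them may be technical in part.

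Insensitive is a nuclear protein that binds DNA through a BEN domain and acts as a co-repressor, also in the Notch pathway. Its BEN domain is known to bind the palindrome CCAATTGG, and the Elba factors form a complex that binds the asymmetric sequence CCAATAAG in the bithorax complex. Introns near the start of fly genes often hold enhancers and alternative promoters.

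Palindromes of the intronic peaks are shown with 26 bp of plus-strand sequence on each side, for those of the 10 strongest such peaks that are printed here, because these letters are the part of the DNA that the BEN domain is known to contact. All sequences are from the RefSeq release 6 genome, in dm6 coordinates, and capitals mark CCAATTGG.
Cph (chrX:7162750-7162809): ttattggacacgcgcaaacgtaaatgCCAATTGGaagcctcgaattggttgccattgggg
pros (chr3R:11345092-11345151): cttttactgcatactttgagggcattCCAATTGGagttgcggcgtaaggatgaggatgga
rdgA (chrX:8908381-8908440): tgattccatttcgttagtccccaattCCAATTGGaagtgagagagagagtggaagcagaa
Mad (chr2L:3158678-3158737): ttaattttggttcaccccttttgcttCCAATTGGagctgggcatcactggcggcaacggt
nub (chr2L:12603514-12603573): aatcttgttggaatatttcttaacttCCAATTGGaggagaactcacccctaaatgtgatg
mnb (chrX:17886221-17886280): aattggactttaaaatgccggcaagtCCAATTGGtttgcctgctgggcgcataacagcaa
sws with sn (chrX:7966148-7966207): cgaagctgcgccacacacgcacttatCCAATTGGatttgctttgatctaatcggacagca
Targ2 with Targ1 (chr3L:21202158-21202217): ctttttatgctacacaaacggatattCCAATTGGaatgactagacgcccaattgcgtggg
A T stood directly before the capitals in 7 of these 8 sequences, and an A directly after them in 7.

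Several of the strongest intronic peaks held a neighbouring form instead, CCAATNAG, in which the palindrome is kept on the CCAAT side and broken on the other. It includes the Elba sequence. The 201 bp centred on 4 of the strongest summits are shown because they show this form, alone or beside the palindrome, and its absence. Capitals mark CCAATTGG, CCAATNAG and their reverse complements.
CG32719 (chrX:7522022-7522222): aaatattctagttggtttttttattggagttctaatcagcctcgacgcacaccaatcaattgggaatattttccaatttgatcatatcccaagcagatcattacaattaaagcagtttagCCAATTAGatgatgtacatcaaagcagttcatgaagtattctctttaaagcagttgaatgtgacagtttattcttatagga
CG32816 (chrX:407541-407741): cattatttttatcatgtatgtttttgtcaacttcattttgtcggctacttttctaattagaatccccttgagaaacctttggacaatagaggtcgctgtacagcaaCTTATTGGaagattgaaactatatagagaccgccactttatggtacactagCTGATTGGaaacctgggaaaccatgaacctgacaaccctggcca
crp (chr2L:16269244-16269444): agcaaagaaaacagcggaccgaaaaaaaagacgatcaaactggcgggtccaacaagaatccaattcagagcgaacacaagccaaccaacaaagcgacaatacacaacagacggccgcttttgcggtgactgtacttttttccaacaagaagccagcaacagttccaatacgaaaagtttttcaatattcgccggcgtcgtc
Cph (chrX:7162659-7162859): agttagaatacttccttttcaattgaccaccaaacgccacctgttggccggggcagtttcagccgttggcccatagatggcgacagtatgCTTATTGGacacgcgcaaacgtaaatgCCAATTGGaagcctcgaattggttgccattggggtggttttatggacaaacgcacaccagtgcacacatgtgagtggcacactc
The window in CG32719 held 1 copy and that in CG32816 held 2 on the minus strand. The window in crp held none. That in Cph held 1 palindrome and 1 asymmetric copy, CCAATAAG on the minus strand.

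The highest signal of all intronic peaks was in PH4alphaEFB (FBgn0039776), which encodes the catalytic subunit of the prolyl 4-hydroxylase that modifies collagen. The region had a pooled signal of 738.0 and lay 1222 bp downstream of the nearest start, in the first of 8 introns, which is 7659 bp long. The signal is the peak caller's own value for a region, on a scale that is not stated, and it is compared here within a list only. The best overlapping region had a signal of 214.8 in replicate 1, 289.8 in replicate 2 and 237.5 in replicate 3. Ranked among all thresholded peaks within each replicate, these were places 22, 4 and 3, so replicate 1 put it lower than the others.

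CG32719 followed with a pooled signal of 718.9 at X 7521971 to 7522325, in the second intron. It took places 4, 10 and 9 in replicates 1, 2 and 3, and its nearest start was that of CG43138, 6182 bp away. The third peak, with 687.4 at X 407487 to 407807, lay in an intron of 100548 bp in CG32816, 2080 bp upstream of the start of l(1)sc, a proneural gene of the achaete-scute complex. It took places 17, 11 and 5. The fourth was in crp (FBgn0001994), which encodes a basic helix-loop-helix factor of tracheal branching, at 2L 16269215 to 16269511 with 651.8 and places 6, 12 and 15. The fifth, with 595.4 at 2R 7989030 to 7989339 and places 13, 17 and 13, lay in introns of both Nup44A, a nucleoporin gene, and ACC, the gene of acetyl-CoA carboxylase, 522 bp downstream of the nearest ACC start. No place of these 5 peaks was below 22 in any replicate.

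Places spread further among the peaks below them. The lowest place in any replicate was 66 for the 10 strongest intronic peaks and 236 for the 20 strongest. The place of 236 belonged to Mad (FBgn0011648), the gene of the SMAD protein of the Dpp pathway. Its strongest peak, at 2L 3158627 to 3158854 with a pooled signal of 300.5, had signals of 152.9, 68.9 and 87.4 in replicates 1, 2 and 3 and took places 64, 236 and 79. The remaining members of the 20 strongest covered signals from 295.3 to 462.9.

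These 15 peaks were in genes of varied roles. Vha55, a subunit of the vacuolar proton pump, had 462.9, kst, the heavy beta-spectrin, 441.5 and CG3529 438.9. Cph, a zinc-finger factor related to BCL11, had 419.0, and a peak over CG15465 and rg, which encodes a neurobeachin-like protein, 416.0. The peak in CG11050 (405.0) lay in an intron of only 140 bp, and its region held 146 exon bases, so it is intronic by its summit alone. The PRDM-type factor gene ham, which acts in neuronal fate, had 394.4. The peak of ush, a cofactor of GATA factors, had 377.1 and lay 1370 bp upstream of the start of the zinc-finger gene cbt. The neural homeodomain gene pros had 347.0, CG15356 340.8, and rdgA, a diacylglycerol kinase gene, 314.1. Besides Mad, the list ended with the histone deacetylase gene HDAC4 (300.3), the catalase gene Cat (298.9) and MSAmiP (295.3).

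**Figure D1:**
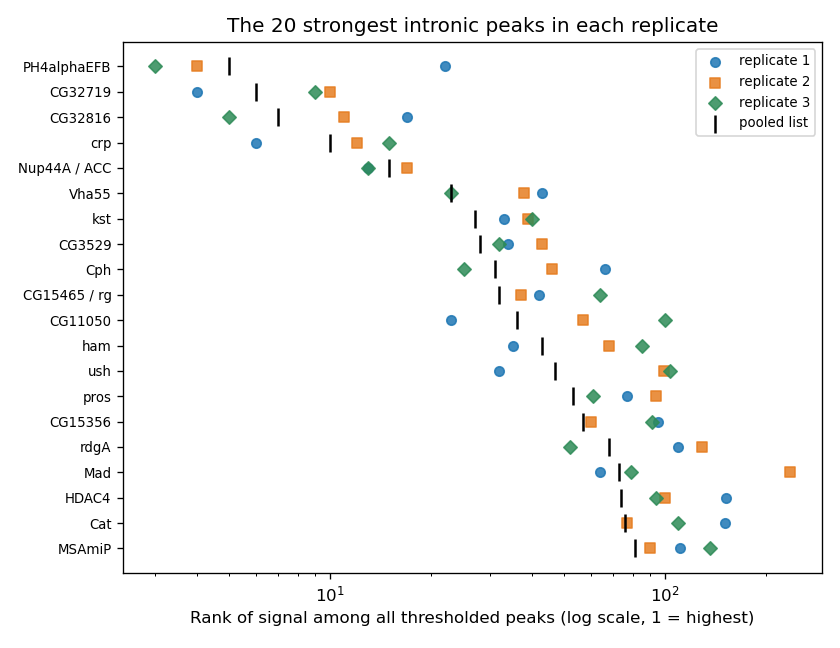
Rank of the 20 strongest intronic peaks among all thresholded peaks (log scale, 1 is the highest signal) in each of the 3 replicates (coloured points) and in the pooled list (black bars), 1 row per peak, named by the genes over the summit. The first 5 peaks stay at or above place 22 in every replicate, and the place farthest right is 236, for Mad in replicate 2.

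Over all 217 peaks the pooled signal ran from 75.2 to 738.0 with a median of 108.3, against a median of 130.3 for the start-proximal and 115.7 for the intergenic peaks. Above the median signal of all thresholded peaks stood 92 of the intronic peaks (42.4%, 36.0 to 49.0%), and 6 stood among the 25 strongest. Measured in each replicate's own list, the median signal of the intronic peaks was 49.1 in replicate 1, 43.3 in replicate 2 and 28.5 in replicate 3. The start-proximal peaks had medians of 62.0, 54.6 and 36.1. The log2 ratio of intronic to start-proximal medians was -0.34 in each, with an SD of 0.0032 (n = 3, exact sign-flip permutation test, two-sided, p = 0.25, the smallest p that 3 replicates allow). Intronic peaks were lower in 3 of 3 replicates, but the log2 ratio was -0.13 when only peaks found in every replicate were compared. Against intergenic peaks the mean log2 ratio was -0.05 with an SD of 0.092, and the sign differed between replicates (exact sign-flip permutation test, two-sided, p = 1). The pooled peaks were chosen on the same 3 replicates, so these ratios are not independent of that choice.

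The 3 weakest intronic peaks were those over fray and CG7694 (75.2), in mbc (75.3), and in the autophagy gene Atg17 (76.0). The replicates gave these weak peaks very different places in their lists of 30000 regions. That in Atg17 ranked 29202, 459 and 394 in replicates 1, 2 and 3, that over fray 624, 942 and 28340, and that in mbc 595, 2547 and 867.

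Recovery in the replicates depends on how far down their lists it is sought. A peak was counted as found when one of a replicate's 1000 strongest regions overlapped it by at least 1 bp. All 3 replicates found 126 of the 217 intronic peaks (58.1%, 51.4 to 64.4%), 73.1% of the start-proximal and 48.3% of the intergenic peaks, against 65.4% of all thresholded peaks. With as many top regions as there are thresholded peaks, all 3 found 48.8% of the intronic peaks. These shares are a description, because the replicates made up the pool. Replicate 1 found 88.5% of the intronic peaks, replicate 2 87.6% and replicate 3 69.6%. For the start-proximal peaks the shares were 91.0%, 91.3% and 84.2%, so the gap was widest in replicate 3.

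Signal and recovery went together. The 126 peaks found 3 times had a median pooled signal of 160.0, the 66 found by 2 replicates 89.2, the 23 found by 1 replicate 79.2, and the 2 found by none 76.3. The strongest peak not found 3 times was in CG31635 (159.5), which ranked 209 and 235 in replicates 1 and 2 but 1243 in replicate 3. Peaks in Mad (86.2), Hr39 (79.5) and neur (76.3) were overlapped by no region at all in the list of replicate 3. Where peaks lie close together, 1 region of a replicate can cover both, as in HDAC4, Mad and svp, so their replicate values are shared.

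Far down the ranking the intronic share changed little. Of the 30000 pooled regions 2.44% were in the thresholded list, and of the 9842 that met the intronic rule 217 (2.20%) were, against 7.00% of 5883 start-proximal regions. Intronic regions made up 29.6% of the thresholded regions, 31.8% of an equal number ranked next and 34.8% of the last 10000. Start-proximal regions fell from 56.3% to 14.2% over the same range. Each replicate's own list was divided after as many top regions as there are thresholded peaks. The intronic share of these top regions was 28.1%, 27.6% and 27.2%, and that of the remaining regions 32.7%, 35.4% and 35.6%. The difference was -6.92 percentage points with an SD of 2.05, lower in the top regions in 3 of 3 replicates (exact sign-flip permutation test, two-sided, p = 0.25, the smallest possible). With the limit at 250 bp from a start the difference shrank to -1.34 points and its sign was no longer the same in every replicate (exact sign-flip permutation test, two-sided, p = 0.5). With 1000 bp it grew to -12.9.

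**Figure D2:**
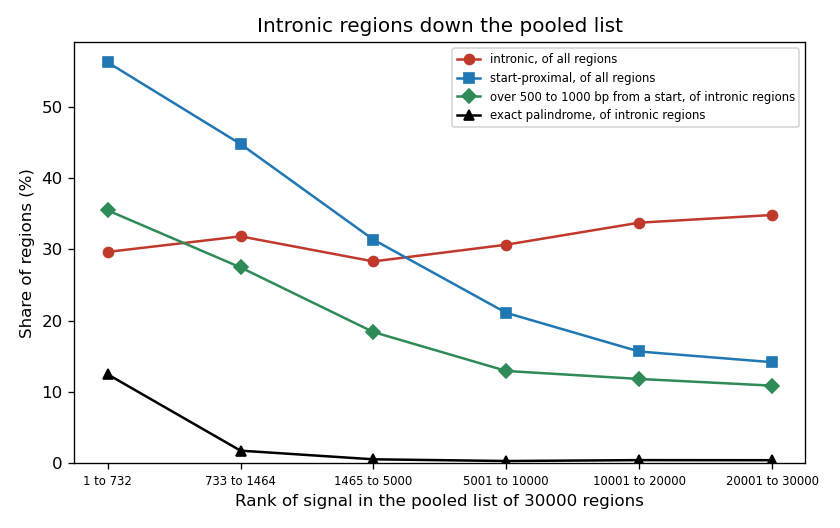
Share of regions (%) in 6 rank classes of the pooled list, by signal, from the thresholded to the last 10000 regions. Red circles are intronic and blue squares start-proximal regions as shares of all regions, and green diamonds and black triangles are the intronic regions 501 to 1000 bp from a start and with the palindrome, as shares of the intronic regions. The intronic share stays between 28.3% and 34.8%, while the palindrome share falls from 12.4% to 0.373%.

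Although chosen to lie away from starts, the intronic peaks crowded toward them. The median distance to the nearest protein-coding start was 1401 bp and the largest 27200 bp, in MSAmiP. Between 501 and 1000 bp lay 77 peaks (35.5%, 29.4 to 42.1%), where only 7.43% of the intronic bases that meet the rule lie. That is 19.3 peaks per Mb of eligible intron, against 4.05 over all 53.6 Mb. The density was 8.30 per Mb at 1001 to 2000 bp (53 peaks), 3.89 at 2001 to 5000 bp (47 peaks), 2.14 at 5001 to 10000 bp (23 peaks) and 0.835 beyond 10000 bp (17 peaks).

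The nearest class was also compared within each replicate's list. Of the intronic regions among the top regions, 35.9%, 33.2% and 40.2% lay 501 to 1000 bp from a start in replicates 1, 2 and 3, and of the other intronic regions 10.9%, 12.7% and 11.8%. The groups did not overlap, and the mean difference was 24.6 points with an SD of 4.01 (n = 3, exact sign-flip permutation test, two-sided, p = 0.25, the smallest possible). Among the peaks found in every replicate the share was 40.5%, and among those above the median signal of all peaks it was 45.7%. The median signal was highest in the nearest class, 134.1 at 501 to 1000 bp, and between 100.5 and 105.8 in the other classes. The share found 3 times was 66.2% in the nearest class and 41.2% in the farthest.

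**Figure D3:**
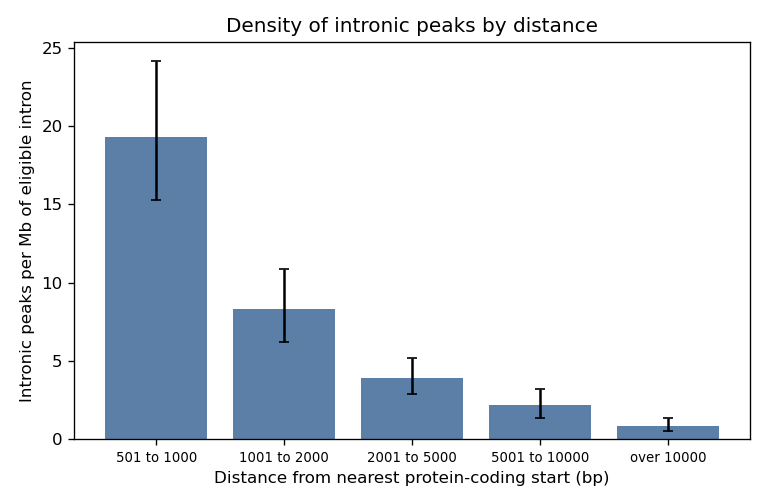
Intronic peaks per Mb of eligible intron in 5 classes of distance from the nearest protein-coding start. Bars are counts divided by the eligible length, and error bars are exact Poisson 95% intervals, which cover counting error only. The density falls from 19.3 per Mb at 501 to 1000 bp to 0.835 per Mb beyond 10000 bp.

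The limit of 500 bp cut through this gradient. The peaks just inside it were in CG9921 (502 bp from the start, signal 86.6) and enc (518 bp, 214.5). Those just outside were at kuk (499 bp, 112.2) and Gs2 (482 bp, 75.4). In introns, 23 peaks lay 501 to 600 bp from a start and 22 lay 401 to 500 bp from one.

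Some distant peaks had high signal. The peak in Cph, 25036 bp from the nearest start, had a pooled signal of 419.0 and signals of 148.1, 144.4 and 118.8 in replicates 1, 2 and 3, at places 66, 46 and 25. In Ubx, the homeotic gene of the bithorax complex, the stronger of 2 peaks lay 14612 bp from a start. It had 286.5 in the pool and 116.1, 82.2 and 79.8 in the replicates, and lay within 500 bp of a start of the antisense RNA gene asRNA:PS4. The other Ubx peak, 3502 bp from a start, had 232.2 in the pool and 81.7, 66.6 and 84.8 in the replicates. All of these values stood above the replicate medians of the intronic peaks.

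**Figure D4:**
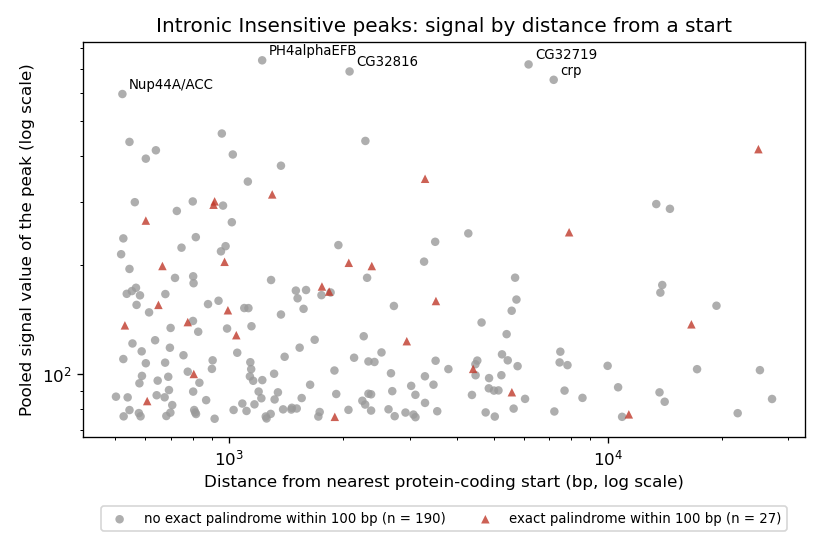
Pooled signal (log scale) of the 217 intronic peaks against the distance of the summit from the nearest protein-coding start (bp, log scale). Red triangles are the 27 peaks with the palindrome within 100 bp, grey circles the other 190, and the 5 strongest are named. Peaks crowd at the left, and both strong peaks and peaks with the palindrome also occur at large distances, up to Cph at 25036 bp with 419.0.

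Within their genes the peaks lay mainly in first introns. Of the 168 summits in an intron of the gene's main (Ensembl canonical) transcript, 102 were in the first intron (60.7%, 53.2 to 67.8%), 51 in the second, 7 in the third and 8 in a later one. First introns hold 25.2% of the eligible bases in the same genes and 30.4% in all genes. First introns are also the ones near starts, so the shares are given by distance. At 501 to 1000 bp 84.7% of the peaks (73.5 to 91.8%) and 55.8% of the bases were in first introns. At 1001 to 2000 bp the shares were 63.9% of 36 peaks (47.6 to 77.5%) and 48.1% of bases, which that interval holds. At 2001 to 5000 bp the shares were 41.7% of peaks and 38.9% of bases, within the interval of 27.1 to 57.8%. They were 47.6% of 21 peaks (28.3 to 67.6%) and 31.7% of bases at 5001 to 10000 bp, and 25% of 16 peaks (10.2 to 49.5%) and 15.4% of bases beyond, where the intervals also hold the share of the bases.

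The remaining 49 summits were in an intron of another transcript only, 28 of the 217 were nearest to a start of another gene, and 17 lay in several genes. The introns were long, with a median of 8067 bp and a range from 140 bp in CG11050 to 132044 bp in kirre, an immunoglobulin-type adhesion gene. In the main transcripts, 107 of 168 summits (63.7%, 56.2 to 70.6%) lay on the 5′ side of the intron's midpoint, where 49.8% of the eligible bases lie. Many peaks sat between alternative starts. At least 1 start of a gene over the summit lay downstream of it for 132 of the 217 peaks (60.8%, 54.2 to 67.1%), a position that 28.6% of the eligible bases have. The nearest start belonged to the gene itself for 189 peaks, of which 140 lay downstream and 49 upstream of it. Within 500 bp of a start of a non-coding gene lay 9 of the peaks.

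The X chromosome had the highest density, 56 peaks or 5.78 per Mb of eligible intron (exact Poisson 95% interval 4.37 to 7.51). Arm 2L had 45 (5.22 per Mb, 3.81 to 6.98), an interval that overlaps that of the X. Arm 3R had 51 (3.67, 2.74 to 4.83), 3L 36 (3.44, 2.41 to 4.76) and 2R 29 (3.08, 2.07 to 4.43). Of the 27 peaks with the palindrome, 12 were on the X. Chromosomes 4 and Y had none in 0.569 and 0.959 Mb, with upper limits of 6.48 and 3.85 per Mb. The limit for chromosome 4 lies above the 4.05 per Mb of all eligible introns. Depth on each arm is unknown, and its part in these densities was not tested.

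The palindrome CCAATTGG, which reads the same on both strands, was found within 100 bp of 27 of the 217 summits (12.4%, 8.69 to 17.5%), against 13.4% of all thresholded peaks and 14.6% of the start-proximal ones. Windows of the same length centred 1000 bp to each side held it in 3 of 434 cases (0.691%), and intronic regions below the threshold in 39 of 9625 (0.405%). In the replicates' own lists the intronic regions among the top regions held it in 10.2%, 12.9% and 13.6% of cases, the start-proximal ones in 11.0%, 13.1% and 14.1%. The mean difference was -0.50 points with an SD of 0.29 (n = 3, exact sign-flip permutation test, two-sided, p = 0.25, the smallest possible), and its sign turned with a narrower window or with fewer top regions. A palindrome lay within 1000 bp of 43 summits, at a median of 52.5 bp for the closest copy, and within 50 bp of 21.

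The 27 peaks with the palindrome had a median signal of 159.2, the other 190 one of 105.6. Their 10 strongest were in Cph, pros, rdgA, Mad, Oda, which encodes the antizyme of ornithine decarboxylase (294.1), CG45088 with CG6191 (265.8), nub, a POU-domain factor (246.8), mnb, a DYRK-type kinase (204.4), sws with sn (203.1), and Targ2 with Targ1 (199.0). All 10 were found by all 3 replicates, as was every intronic peak with a signal above that in CG31635 (159.5), with the palindrome or without. In pros the signals were 139.4, 113.5 and 94.5 in replicates 1, 2 and 3, in nub 108.8, 84.0 and 57.1, and in mnb 93.6, 65.9 and 49.4. Replicate 3 gave the lowest value in each, as it did for the median of all intronic peaks, but the scale of the signal may differ between lists.

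Few intronic palindromes lay in a peak. Eligible introns hold 1044 copies, of which 34 (3.26%, 2.34 to 4.52%) were inside an intronic peak, although these peaks cover only 0.145% of the bases. A further set lay in weaker pooled regions, and 920 lay in no pooled region at all. The letters beside the palindrome differed between the copies. They were read outward from each end, those after the palindrome as their complements, so that a printed A there counts as T. The first letter was T in 75% of 68 cases in peaks and in 25.3% of 2020 cases elsewhere in introns. The second was T in 50% and 32.5%, and the third was A in 55.9% and 29.7%.

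The asymmetric form CCAATNAG, sought on both strands, was more common than the palindrome. It was in 49 intronic windows (22.6%, 17.5 to 28.6%), in 24.5% of start-proximal windows, in 2.30% of the flanks and in 2.90% of the intronic regions below the threshold. This form was chosen after the counts of all 8-letter sequences in the pooled peaks were seen. The pool was made of the same 3 replicates, so the pooled shares and those of the replicates are both a description. In each replicate's list the form was in 22.8%, 24.8% and 24.1% of the intronic regions among the top regions. It was in 2.51%, 2.69% and 2.59% of the other intronic regions. With T as the open letter, CCAATTAG, it was in 23 windows (10.6%), with A, the Elba sequence CCAATAAG, in 18 (8.29%), and with C, CCAATCAG, in 16 (7.37%). With G, CCAATGAG, it was in 0 of the 217, while 0.691% of the flanks held it.

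Peaks with these forms had higher median signals. The summit was only the centre of the region in 183 peaks, with a median signal of 101.5, against 300.4 for the 34 with an off-centre summit. A copy elsewhere in a region of 416 bp can lie outside the window. The part of this in the difference was not tested. The palindrome alone was in 18 windows with a median signal of 137.8, the asymmetric form alone in 40 with 152.2, and both in 9 with 203.1. Neither was in the other 150 (69.1%), whose median was 100.3. All 9 peaks with both forms were found by all 3 replicates, as were 31 of the 40 with the asymmetric form alone, 12 of the 18 with the palindrome alone and 74 of the 150 with neither (49.3%, 41.4 to 57.3%). Of the 20 strongest intronic peaks 6 had the asymmetric form alone, 1 the palindrome alone, 3 both and 10 neither. Those with neither included crp, Vha55 and ham, so a strong signal did not require these letters within 100 bp.

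Of all sequences of 8 letters, the largest difference between intronic windows and flanks was that of TTCCAATT, which is the CCAATT side of the palindrome with TT before it. It was in 38 windows (17.5%) and in 3.23% of the flanks. It overlaps the palindrome and CCAATTAG where TT stands before them. AATAAGAA, which shares AATAAG with the Elba sequence, was in 22 windows (10.1%) and 2.53% of the flanks. CAATCAGA, which overlaps CCAATCAG, was in 12 windows (5.53%) and 0.230% of the flanks. The inner part of the palindrome, CAATTG, was in 48 windows (22.1%) and 9.68% of the flanks.

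Of elements known from fly promoters, 2 were less frequent in intronic than in start-proximal windows and at or below their share in the flanks. The M1BP element GGTCACAC was in 0 of 217 windows (upper limit 1.74%), in 5.10% of start-proximal ones and in 2.53% of the flanks. The DREF element TATCGATA was in 2 intronic windows (0.922%, 0.253 to 3.30%), in 5.83% of start-proximal ones and in 0.922% of the flanks. The flanks were not restricted to introns and can reach starts. Intronic regions below the threshold held the M1BP element in 0.468% and the DREF element in 0.436%, shares that the intervals of the intronic peaks hold. The E-box CAGCTG was in 8.29% of intronic and 14.3% of start-proximal windows, and in 9.45% of the flanks. GAGAGAG, the repeat bound by GAGA factor, was in 26 intronic windows (12.0%, 8.31 to 17.0%), 6.80% of start-proximal windows and 6.45% of the flanks. Of the intronic regions below the threshold, 2.57% held it. The Zelda sequence CAGGTAG was in 1.38% of intronic windows and 1.15% of flanks, and the CTCF core CCACCAG in 0.461% and 3.23%. The Su(H) sequence GTGGGAA was in 2.30% of both, and the homeodomain core TAATTA in 12.0% and 12.4%. The GATA factor core AGATAA was in 8.76% of intronic windows and 10.8% of flanks, and TGCATA, part of the Su(Hw) sequence, in 14.7% and 15.2%. All were sought on both strands, and no match shows a bound factor.

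**Figure D5:**
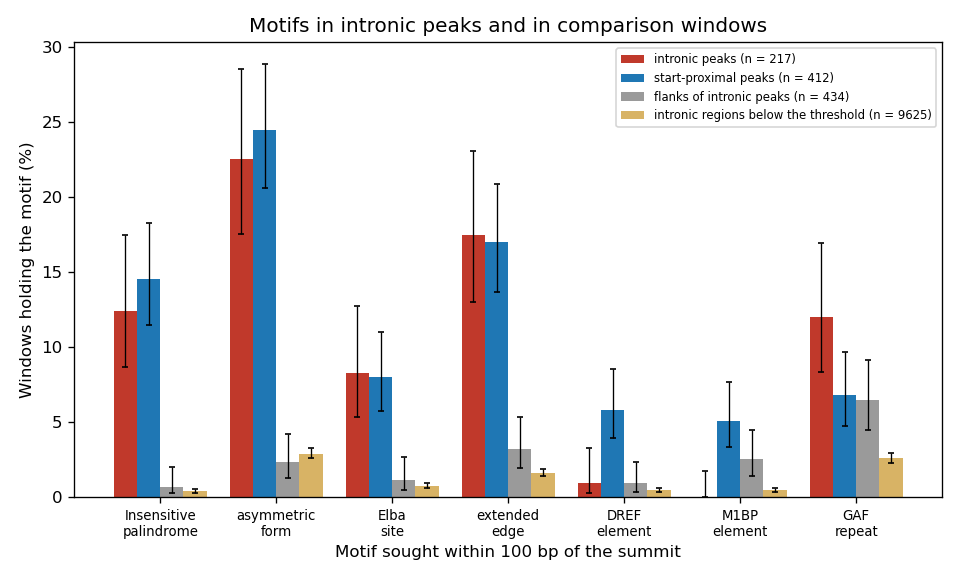
Share of windows of 201 bp (%) that hold each of 7 sequences, in intronic peaks, start-proximal peaks, flanks of intronic peaks and intronic regions below the threshold. The extended edge is TTCCAATT, and error bars are Wilson 95% intervals. The palindrome and the asymmetric form stand at 12.4% and 22.6% in intronic peaks, close to the start-proximal bars, whereas the DREF and M1BP bars reach 5.83% and 5.10% in start-proximal peaks and 0.922% and 0% in intronic ones.

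The 217 peaks lay in 209 protein-coding genes, which is 2.26% of the 9242 genes with eligible intronic sequence. They were long genes, with a median of 19870 bp against 3489.5 bp for all eligible genes. With the eligible genes divided by intron length into 4 classes of equal number, the longest class held 175 hosts (7.57% of it) at 3.83 peaks per Mb, and the next class 31 hosts at 11.0 peaks per Mb. Of the hosts, 32 (15.3%) also had a start-proximal peak, against 4.23% of eligible genes. Overlapping genes were counted separately, so the same start-proximal peak could count for more than 1 host, as for ACC and Nup44A. The contrast was not matched for gene length or number of starts. Several intronic peaks were held by 22 hosts, of which 13 had summits more than 500 bp apart.

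With 3 peaks each, ush, Mad, HDAC4 and Raf had the most. In Raf, which encodes the kinase that links Ras to MAP kinase, the peaks were in the second intron of 43637 bp, 1380, 4372 and 7695 bp from its 5′ end, with pooled signals of 127.2, 113.3 and 85.9. In ush only the peak near cbt was strong, at 377.1, and the others had 90.0 and 79.9. HDAC4 had 300.3 in the first intron and a close pair of 138.8 and 91.3 in the second. Mad had the peak of 300.5 with a second region overlapping it (134.1), and another of 86.2 lay 675 bp from a start.

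The host genes were also counted in gene lists. Several list members had been drawn from earlier results of these data, so a share above that of all eligible genes may be built in. The shares are a description and no sign of enrichment. Nuclear receptor and ecdysone response genes held peaks in 6 of 22 eligible genes (27.3%, against 2.26% of all eligible genes), or 13.2 peaks per Mb against 4.05 over all eligible introns. They were svp, the fly COUP-TF (169.1), knrl, a relative of knirps (137.3), Hr3 (105.8), Hr4 (105.4) and Hr39 (79.5), receptors of the ecdysone cascade or related to it, and EcR, the ecdysone receptor (84.3). In svp the signals were 99.7, 56.0 and 28.7 in replicates 1, 2 and 3, and in knrl 46.9, 57.6 and 37.5. Both held a palindrome. The EcR peak had 31.7, 37.6 and 19.5 and was found by 2 replicates.

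Of genes of growth factor signalling 6 of 31 held peaks (19.4%, against 2.26% of all eligible genes), or 14.8 per Mb against 4.05. They were Mad (300.5), tkv, a Dpp receptor (155.3), fz, a Frizzled receptor (102.5), InR, the insulin receptor (98.2), N, the Notch receptor (91.9), and aos, an inhibitor of the EGF receptor (77.2). The tkv peak had signals of 47.9, 75.6 and 42.1 in replicates 1, 2 and 3. That of N, in the fifth intron, had 33.8, 40.1 and 14.3 and ranked 3329 of 30000 in replicate 3. That of InR had 12.5, 28.2 and 48.8. Among all thresholded peaks it took places 726, 631 and 217, farther apart than the 445, 203 and 268 of tkv.

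RNA-binding protein genes held peaks in 9 of 27 (33.3%, against 2.26% of all eligible genes). Their introns are long, and over 1.70 Mb of eligible intron this was 5.87 peaks per Mb, against 4.05 over all. The stronger were ps, the fly Nova (166.4), and mub, a KH-domain protein gene with 2 peaks (152.2 and 135.6). The others were the translational repressor gene brat (95.9), Rbfox1 (87.6), pum (79.2), fne (78.2), mbl (76.4), cpo (76.4) and orb (76.1). Most of these were near the threshold of the list, whose lowest pooled signal was 74.99. In cpo, no replicate had a region among its 1000 strongest over the peak.

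Chromatin and co-regulator genes held peaks in 5 of 26 (19.2%, against 2.26% of all eligible genes). Over their 0.157 Mb of eligible intron this was 50.8 peaks per Mb, against 4.05 over all and 11.0 in the class of genes with the next to longest introns. Close peaks add to this density, since the 3 in HDAC4 formed 2 separate stretches and the 2 in Trl formed 1. They were HDAC4 (300.3), osa, a subunit of the Brahma remodeller (176.3), Trl, the gene of GAGA factor (170.2), and the Polycomb group genes Psc (90.1) and ph-p (82.4). The osa peak had 72.5, 51.1 and 50.8 in replicates 1, 2 and 3 and the Trl peak 76.6, 46.7 and 51.4. Metabolic enzyme genes held 3 of 21 (14.3%), PH4alphaEFB, ACC and Zw, the gene of glucose-6-phosphate dehydrogenase (82.8). Their density was higher still, 59.7 peaks per Mb, over only 0.0502 Mb of eligible intron. Zinc-finger, helix-loop-helix and other developmental factor genes held 3 of 29 (10.3%), crp, pros and crol (108.0).

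Some lists gave 1 host gene each, which is 3.33 to 4% of their eligible genes against 2.26% of all eligible genes. Axon guidance and neuronal adhesion genes gave 1 of 30, kirre (108.3), at 1.22 peaks per Mb over 1.64 Mb of eligible intron against 4.05 over all. Ion channel and synapse genes gave 1 of 29, dnc, a cAMP phosphodiesterase gene (77.3), at 0.982 per Mb. The homeobox list gave 1 of 29, Ubx, at 3.13 per Mb. It is not complete, since the homeodomain gene pros was counted with the developmental factors and the POU-domain gene nub in no list. Intracellular kinases gave 1 of 25 (Btk, 108.9) and actin and junction genes 1 of 25 (scrib, a polarity gene, 173.2). Each of these rests on 1 host gene, and the lists were described by counts with no test. The lists do not cover whole families, and only 38 of the 209 hosts were in any list. A low share or density therefore holds for the listed genes and not for their families. The kinase genes Raf and mnb and the spectrin gene kst were among the hosts in no list.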

How the data were processed

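Peak lists from chromatin immunoprecipitation of GFP-tagged Insensitive were analysed for 3 biological replicates of 1 group, grouped by the labels. For each replicate and for the pool, the authors deposited 30000 called regions, background included, and 732 pooled peaks passed the irreproducible discovery rate (IDR), per the labels and the accompanying text lists. The deposited signal value (column 7) is the caller's own, and the deposited summit offset gave the summit. Off-centre summits were found in 34 intronic peaks (median signal 300.4), centred ones in 183 (101.5), with a median width of 416 bp, so most summits mark a region's centre. Aligner, caller, IDR threshold and depth were not given in the sources used here, and no interval that needs depth was made. The top regions of a replicate are its 732 strongest, and peaks above the median signal are the 366 strongest. The lists on the older assembly were not used.

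Summits were placed on the Ensembl release 115 annotation (BDGP 6.54, dm6). Eligible intron is sequence that meets the position rule. Shares carry Wilson 95% intervals and densities exact Poisson 95% intervals, for counting error only. Replicates were compared by exact sign-flip permutation tests, and regions were not treated as replicates. Intron numbers are those of the main transcript where it holds the summit, otherwise of another transcript. Python 3.11.15, NumPy 2.4.6, SciPy 1.17.1 and matplotlib 3.10.9 were used, and the code was tested on simulated data.

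Named genes are the hosts of the 20 strongest intronic peaks, of the 10 strongest with the palindrome, those with 3 or more peaks, those in a gene list, the 2 peaks on each side of the distance limit and the 3 weakest peaks. The peaks, motifs and lists were chosen with earlier results of these data known, and CG31635, neur, MSAmiP's second peak and the motifs CCAATNAG and TTCCAATT after values were seen. Of 341 list symbols 1 matched no gene. The counts of 1 gene list and the bases of 1 summit window are not reported here. Other windows, distances, list lengths, transcripts and subsets were tried, and each replicate was left out in turn.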

Additional observations from a re-analysis of the deposited data

How the results depend on the processing

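The count of 217 became 278 with a limit of 250 bp, 140 with 1000 bp and 92 among peaks above the median signal of all peaks, and the 209 hosts became 96 there. With a replicate left out, only peaks found by both others counted, which gave 135 to 168 peaks and 131 to 163 hosts. The 58.1% found by all replicates became 48.8% with as many top regions as thresholded peaks, 75.6% with 2000 and 62.2 to 77.4% with a replicate left out. The first-intron share of 60.7% became 76.0% when the first intron of any transcript counted, and 55.9 to 63.3% with a replicate left out. The palindrome share minus that of the flanks, 11.8 points, became 21.2 above the median signal, 28.1 with the asymmetric form added after seeing the data, and 12.8 to 15.9 with a replicate left out. Its difference from start-proximal regions reversed to 0.37 points with windows of 50 bp to each side and to 1.44 with fewer top regions, and was -0.65 to -0.37 with a replicate left out. The cause of these reversals was not tested. The intronic share difference stayed between -12.9 and -1.34 points and the signal ratio between -0.34 and -0.13 in every alternative run. No test could pass, since the smallest p was 0.25. No paired analysis was possible because replicate numbers pair samples across groups and the series has 1 group, whereas classes of region were compared within each replicate. Unknown depth, control signal and copy number of the tagged gene limit all values.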
